A study of Mus musculus with 8 samples.

Results

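The genes described here are 10 genes of the hypoxia response in the mouse cerebellum, chosen by name from the 56691 genes of the deposited count table. They comprise 3 subunits of the hypoxia-inducible factors (*Hif1a*, *Epas1* and *Arnt*), 3 genes of oxygen sensing (*Vhl*, *Egln1* and *Egln3*) and 4 target genes (*Vegfa*, *Ddit4*, *Mxi1* and *Bnip3*). All 10 were found by their Ensembl identifier, and all 10 were tested, since each had at least 316 counts in every library. *Atm* encodes a kinase of the DNA damage response, and its loss causes ataxia-telangiectasia in humans. Bulk RNA sequencing compared the cerebellum of 4 *Atm*-WT mice (genotype ATM +/+) with that of 4 *Atm*-KO mice (ATM -/-), each mouse giving a library of its own. The mice were littermates from crosses of B6;129S4-Atmtm1Bal/J heterozygotes, a constitutive germline knockout present in all cells, and were 6 months old. The labels name the *Atm*-WT mice 2M, 7M, 13M and 32M and the *Atm*-KO mice 1M, 7F, 11M and 12M, so that the letter F occurs in a single *Atm*-KO mouse.

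HIF factors are dimers of an oxygen-regulated α subunit and the constant subunit ARNT. With oxygen, prolyl hydroxylases of the EGLN family mark the α subunit, and the VHL ubiquitin ligase then directs it to the proteasome. When oxygen is short the α subunit persists, pairs with ARNT in the nucleus and binds the core letters ACGTG or GCGTG near its target genes. The α subunit is thus set largely at the protein level, which RNA sequencing does not measure, whereas the targets are read out as RNA. Beyond oxygen, insulin and growth factor signalling also act on HIF1α, and the study examined how ATM bears on HIF1α in the cerebellum.

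The core letters could be looked for around the starts of the members. RefSeq promoter windows (table of build GRCm38.p6) were available for 9 of the 10 members and comprised 12 windows, each of which occurred once in GRCm39. Over the 250 bases before the start, 8 of the 9 members held ACGTG or GCGTG on either strand in at least 1 window, and 7 held ACGTG. Counted by window, 9 of the 12 held either motif. The windows of *Vhl*, of the outermost *Vegfa* start and of the outermost *Mxi1* start held neither in these 250 bases. Of all 32851 RefSeq windows, 38.6% held either motif and 16.6% held ACGTG, and among the 16750 windows of genes tested the shares were 51.8% and 20.2%. A member with several starts had several chances, and a match is a run of letters, not a measured binding site. The stretches below are those of the 5 members whose levels did not overlap between genotypes, and the densest stretch of *Bnip3*, which held the most matches. A further *Mxi1* match (ACGTG from −25 of another internal start) and a further *Bnip3* match (GCGTG from −35) are not shown. Each is 29 bases long, is read 5′ to 3′ on the strand of its gene and shows the motif letters in capitals, with CACGT and CACGC being ACGTG and GCGTG on the opposite strand. ACGTG and CACGT overlap in CACGTG. The name of each stretch is followed by the position of its first motif letter relative to the RefSeq start.
*Arnt*, chr3:95341660-95341688 on the plus strand, from −29: ccatagtttgggGCGTGtcttctgcccag
*Egln1*, chr8:125676103-125676131 on the minus strand, from −126: gcccggcccgccGCGTGcgcgcggccccc
*Egln1*, chr8:125676045-125676073 on the minus strand, from −68: gggccgtggtgtACGTGcagcgcgcgcgg
*Vegfa*, chr17:46336287-46336315 on the minus strand, from −218 of an internal start: cctggagtGCGTGccCACGTcagagagca
*Ddit4*, chr10:59787763-59787791 on the minus strand, from −187: agaacgttgcgaACGTGcgcccggtgcct
*Ddit4*, chr10:59787691-59787719 on the minus strand, from −115: gacctggaggggGCGTGgcctcgccggga
*Mxi1*, chr19:53317766-53317794 on the plus strand, from −66 of an internal start: cctcggcacccgACGTGcactggcggggg
*Bnip3*, chr7:138511327-138511355 on the minus strand, from −117: gcgCACGCgccgCACGTGccaCACGCtcc
The windows of *Arnt*, *Egln1*, *Ddit4* and the innermost *Mxi1* start lay with all 250 bases in exons of GENCODE transcripts of the same gene, so sequence of these windows is partly transcribed, as are 218 of the 250 bases of the *Vegfa* window shown.

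The 8 libraries held between 65967130 and 88030300 counts. *Atm* itself had 71.5 ± 10.1 CPM (counts scaled to a common library size) in *Atm*-WT mice and 45.4 ± 4.16 CPM in *Atm*-KO mice (mean ± SD, n = 4), ranging from 59.0 to 80.0 CPM and from 41.1 to 51.1 CPM without overlap. Its log2 fold change of −0.66 (SE 0.103) did not pass the adjusted threshold of edgeR (adjusted p = 0.0775), and the knockout mice kept *Atm* counts. Granule cell markers summed to 3900 CPM or more and Purkinje cell markers to 8290 CPM or more in every library, as the tissue label calls for. Atm-WT 32M and Atm-KO 12M stood apart from the other libraries in a surrogate variable estimated from the counts (0.4304 and −0.875, others from 0.003092 to 0.1537), so the fold changes of the members are also given without both. Genes of the TEC class, which are unproven transcripts, took 0.276%, 0.327%, 0.333% and 0.204% of the counts in *Atm*-WT and 0.513%, 0.354%, 0.402% and 0.529% in *Atm*-KO libraries, in the order of mice given above. Likewise 8 RNAs kept in the nucleus summed to 5110 to 10000 CPM in *Atm*-WT mice and 10600 to 16300 CPM in *Atm*-KO mice. This list was chosen with earlier results of these data known. All 8 RNAs were higher in *Atm*-KO mice at an unadjusted p under 0.05 (11.7% of all genes tested). Of them 1 passed the adjusted threshold in edgeR, 7 in DESeq2 and 0 with the voom method of limma. Summed markers of mural cells (230 ± 21.4 and 184 ± 23.3 CPM), oligodendrocytes (3690 ± 434 and 2940 ± 662 CPM), microglia (149 ± 17.3 and 120 ± 14.3 CPM) and choroid plexus (1190 ± 369 and 846 ± 330 CPM) had lower means in *Atm*-KO mice, and the ranges of the sums overlapped. In that order 4 of 8, 3 of 8, 4 of 7 and 3 of 7 markers were lower at an unadjusted p under 0.05, and 0 were higher. Among all genes tested 8.48% were lower, and 14.6% among protein-coding genes with at least 10 CPM. *Ttr* held 84.5% of the choroid plexus sum. Mitochondrial genes took 0.903% to 1.2% of the counts in *Atm*-WT mice and 0.565% to 0.952% in *Atm*-KO mice. The part of these differences between libraries in the results on the members was not tested.

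Values are CPM with TMM normalization, which corrects library size for composition. *Arnt* and *Vegfa* were higher in all 4 *Atm*-KO mice than in any *Atm*-WT mouse, and *Egln1*, *Ddit4* and *Mxi1* were lower in all 4. The remaining 5 members overlapped between genotypes. In bulk tissue, fewer cells of a type and less RNA per cell cannot be told apart, which holds for every difference given here.

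Of the 10 members, 0 passed the threshold of an adjusted p under 0.05 by the quasi-likelihood test of edgeR, which called 4 of 22423 genes (0.0178%). At an unadjusted p under 0.05, 2 members were higher in *Atm*-KO mice and 3 were lower, where the shares among all genes tested were 11.7% higher and 8.48% lower. The members that did not overlap were the same 5 genes, 2 higher beside 6.47% of all genes and 3 lower beside 5.12%. Among the 9737 protein-coding genes with at least 10 CPM, 7.51% had an unadjusted p under 0.05 with a higher and 14.6% with a lower level, and 4.68% and 8.52% did not overlap. The Wald test of DESeq2 called 3 members (*Ddit4*, *Mxi1* and *Arnt*), where it called 8.03% of the 20036 genes to which it gave an adjusted p. In edgeR without a filter on low counts 2 members were called (*Ddit4* and *Mxi1*), where 591 genes were called in all. That fit took the 56691 genes of the table except 20123 with 0 counts in every library. The median log2 fold change of the members was −0.12, against −0.018 over all genes tested and −0.059 over the protein-coding genes with at least 10 CPM, of which 66.9% were fitted lower in *Atm*-KO mice. These counts describe the members, and nothing particular to them is read from so few genes.

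**Figure D1:**
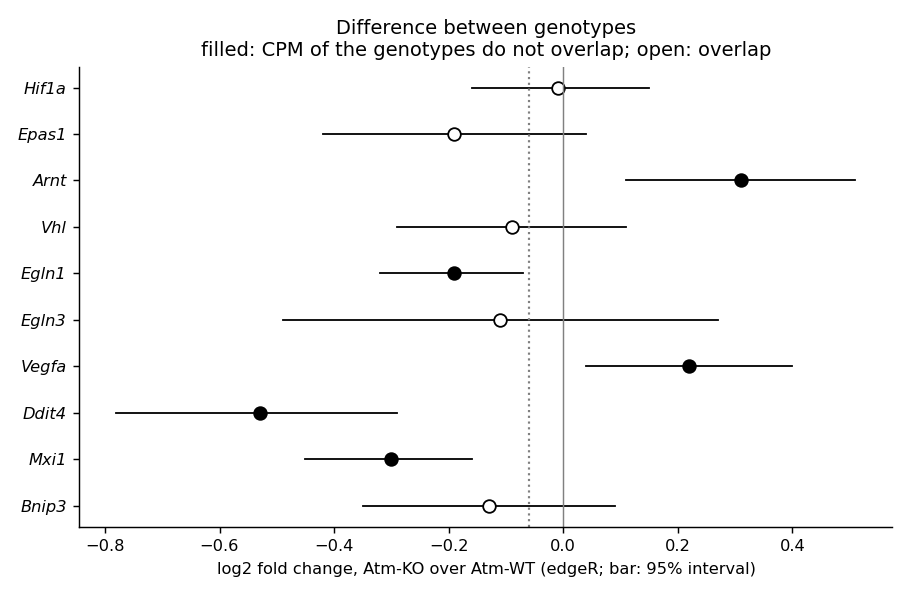
Log2 fold change of each of the 10 genes, *Atm*-KO over *Atm*-WT, by edgeR, with bars for the 95% interval; filled points mark genes whose CPM did not overlap between the 4 mice of each genotype, and the dotted line is the median of protein-coding genes with at least 10 CPM (−0.059). *Arnt* (0.31) and *Vegfa* (0.22) lie to the right of 0 with their intervals, *Egln1* (−0.19), *Mxi1* (−0.30) and *Ddit4* (−0.53) to the left, and the intervals of the other 5 genes cross 0.

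Among the subunits, *Hif1a*, which encodes the widely expressed α subunit (chr12:73948149-73996321, GRCm39, plus strand), had 235, 258, 273 and 237 CPM in *Atm*-WT mice 2M, 7M, 13M and 32M and 239, 238, 257 and 266 CPM in *Atm*-KO mice 1M, 7F, 11M and 12M. The 4 *Atm*-KO values lay inside the range of the *Atm*-WT values. The means were 251 ± 18.1 and 250 ± 13.4 CPM, a log2 fold change of −0.01 (SE 0.069, 95% interval −0.16 to 0.15, edgeR adjusted p = 0.976). An exact permutation test on log2 CPM, two-sided like all those below, gave p = 0.943. The interval bounds the change of *Hif1a* RNA in either direction. The sign of the log2 fold change depended on the setting, the value being 0.05 with library size alone and −0.06 without both libraries that stood apart. *Hif1a* shares 695 exon bases with the antisense RNA *Gm15283*, which had 1419 counts over the 8 libraries. Whether the counting used strand is not given in the sources used here, so reads of such a pair cannot be told apart.

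*Epas1* encodes the α subunit of HIF2, which is known from endothelial cells and astrocytes (chr17:87061087-87140838, plus strand). Its levels, in the same order of mice, were 203, 213, 191 and 168 CPM in *Atm*-WT mice and 156, 193, 187 and 143 CPM in *Atm*-KO mice. *Atm*-KO mice 1M and 12M lay below every *Atm*-WT mouse, while 7F and 11M lay inside the *Atm*-WT range. The log2 fold change was −0.19 (SE 0.104, interval −0.42 to 0.04, edgeR adjusted p = 0.326), and it was −0.18 without both libraries that stood apart. With each library left out in turn it lay between −0.25 (without Atm-WT 32M, edgeR unadjusted p = 0.0307) and −0.12 (without Atm-KO 12M), and its unadjusted p was 0.0484 without Atm-KO 7F. The 12 endothelial markers summed to 299, 309, 271 and 311 CPM in *Atm*-WT mice and 263, 273, 304 and 234 CPM in *Atm*-KO mice, with none of the markers at 0, and 3 of the 12 were lower with an unadjusted p under 0.05, where 8.48% of all genes tested and 14.6% of protein-coding genes with at least 10 CPM were. The 10 markers of astrocytes and Bergmann glia summed to 5640 to 6340 CPM in *Atm*-WT mice and 4960 to 5790 CPM in *Atm*-KO mice, also with none at 0 and with 4 lower at an unadjusted p under 0.05. The part of these cell types in the *Epas1* values was not tested.

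*Arnt*, the shared partner of both α subunits (chr3:95341365-95404551, plus strand), had 50.4, 55.9, 53.6 and 45.2 CPM in *Atm*-WT mice and 71.0, 57.5, 57.7 and 68.5 CPM in *Atm*-KO mice. All 4 *Atm*-KO mice lay above all *Atm*-WT mice, but 7F and 11M exceeded the highest of these by little and 1M and 12M by more. The mean went from 51.2 ± 4.65 to 63.7 ± 7.08 CPM, 24.3% higher in the fit, with a log2 fold change of 0.31 (SE 0.092, interval 0.11 to 0.51), which did not pass the adjusted threshold (edgeR adjusted p = 0.119). The exact permutation p was 0.0286, the smallest that 4 against 4 mice allow. Without both libraries that stood apart the log2 fold change was 0.22 (SE 0.090, edgeR adjusted p = 0.32). *Arnt* was lowest in Atm-WT 32M and highest in Atm-KO 1M and 12M, the libraries with the lowest and the 2 highest shares of TEC genes, and the part of whatever raised that share was not tested. *Arnt2*, a paralog used by neurons, had 127 ± 6.63 CPM in *Atm*-WT mice and 114 ± 17.1 CPM in *Atm*-KO mice, with overlap (edgeR adjusted p = 0.404).

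**Figure D2:**
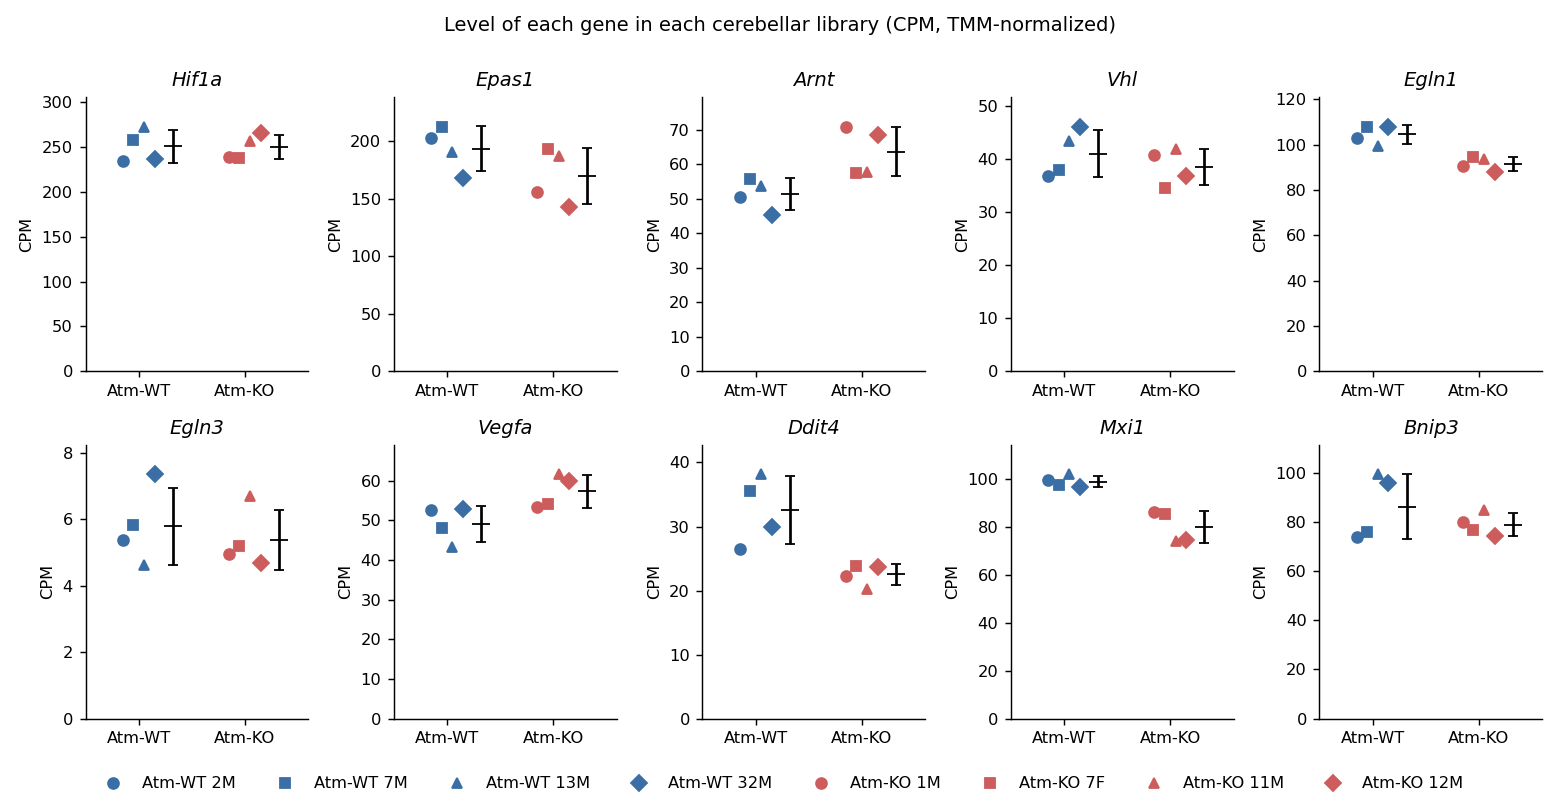
CPM of each gene in each library (linear axes from 0), with a symbol for each mouse and, beside the points, the mean and SD of the 4 mice of each genotype. The points of *Arnt*, *Egln1*, *Vegfa*, *Ddit4* and *Mxi1* separate by genotype, those of *Vegfa* by the least (52.8 CPM in the highest *Atm*-WT and 53.4 CPM in the lowest *Atm*-KO mouse), and the points of the other 5 genes overlap.

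In the oxygen-sensing group, *Vhl*, the substrate receptor of the ubiquitin ligase (chr6:113600920-113608599, plus strand), had 36.9, 37.9, 43.4 and 46.2 CPM in *Atm*-WT mice and 40.9, 34.6, 41.9 and 36.9 CPM in *Atm*-KO mice. The ranges overlapped, with 7F alone below the *Atm*-WT mice. Its log2 fold change was −0.09 (SE 0.092, interval −0.29 to 0.11, edgeR adjusted p = 0.611). It lay between −0.14 and −0.03 with each library left out in turn and was −0.0089 without both libraries that stood apart.

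*Egln1* encodes PHD2, the main hydroxylase that marks HIF1α (chr8:125635308-125676865, minus strand). It had 103, 108, 99.2 and 108 CPM in *Atm*-WT mice and 90.5, 94.5, 93.5 and 87.8 CPM in *Atm*-KO mice. The groups lay close together inside each genotype, with coefficients of variation of 4.03% and 3.33%, and did not overlap. The mean went from 105 ± 4.22 to 91.6 ± 3.05 CPM, which the fit gave as −12.4%, a log2 fold change of −0.19 (SE 0.057, interval −0.32 to −0.07, edgeR adjusted p = 0.123, exact permutation p = 0.0286). It was −0.16 without both libraries that stood apart and −0.14 with library size alone.

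*Egln3* encodes PHD3, a hydroxylase whose own gene responds to hypoxia (chr12:54225767-54250673, minus strand), and it had the lowest level of the members. Its values were 5.37, 5.82, 4.63 and 7.37 CPM in *Atm*-WT mice and 4.97, 5.19, 6.71 and 4.68 CPM in *Atm*-KO mice. The groups overlapped, and the mouse-to-mouse spread was the widest of the 10 genes, with coefficients of variation of 20% and 16.8%. The log2 fold change of −0.11 (SE 0.174, interval −0.49 to 0.27, edgeR adjusted p = 0.771) had no fixed sign, being 0.03 without Atm-WT 32M and 0.09 without both libraries that stood apart.

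Of the targets, *Vegfa* encodes the angiogenic growth factor that neurons and glia release to vessels (chr17:46327919-46343309, minus strand). It had 52.5, 48.2, 43.2 and 52.8 CPM in *Atm*-WT mice and 53.4, 54.1, 61.7 and 60 CPM in *Atm*-KO mice. The *Atm*-KO values lay above the *Atm*-WT values by a narrow margin, and with CPM by library size alone, or without Atm-WT 7M, the genotypes overlapped. The means were 49.2 ± 4.48 and 57.3 ± 4.17 CPM, 16.6% higher in the fit, a log2 fold change of 0.22 (SE 0.081, interval 0.04 to 0.40, edgeR adjusted p = 0.171, exact permutation p = 0.0286). Without Atm-KO 11M the unadjusted p of edgeR was 0.0505, and without both libraries that stood apart the log2 fold change was 0.23. *Vegfa* was the target member with a higher level, beside *Ddit4* and *Mxi1* with a lower one.

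*Ddit4* (REDD1) restrains the growth kinase complex mTORC1 and is induced by hypoxia, by glucocorticoids and by energy stress (chr10:59785491-59788492, minus strand). It had 26.5, 35.6, 38.2 and 29.9 CPM in *Atm*-WT mice and 22.2, 23.9, 20.3 and 23.7 CPM in *Atm*-KO mice. The highest *Atm*-KO value stayed under the lowest *Atm*-WT value, and the *Atm*-WT mice spread more widely. The mean went from 32.5 ± 5.29 to 22.5 ± 1.67 CPM. In the fit this was −30.8%, a log2 fold change of −0.53 (SE 0.113, interval −0.78 to −0.29), the largest of the 10 genes in size. It did not pass the threshold in edgeR (adjusted p = 0.0931, exact permutation p = 0.0286) and passed it in DESeq2 (adjusted p = 0.00226). Over all settings tried the log2 fold change lay between −0.62 and −0.43, and without both libraries that stood apart it was −0.60.

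Beside *Ddit4*, 12 genes of the glucocorticoid response were set as a list, which was chosen with earlier results of these data known. Of these, 0 were higher and 10 were lower with an unadjusted p under 0.05, where 8.48% of all genes tested were lower. In edgeR 0 passed the adjusted threshold, and 0 did with the voom method of limma. DESeq2 called 4, where it called 8.03% of 20036 genes. In edgeR without a filter on low counts 7 were called, where 591 genes were called in all. The median log2 fold change of the list was −0.84. *Mt1*, a metallothionein, had 39.6 ± 6.23 CPM in *Atm*-WT mice and 20.8 ± 6.05 CPM in *Atm*-KO mice. *Sgk1*, a kinase induced by steroids, had 147 ± 49.8 and 76.9 ± 16.7 CPM, and *Errfi1*, an inhibitor of EGF receptor signalling, 64.7 ± 13 and 46.8 ± 2.41 CPM. The ranges of these genes did not overlap between genotypes. In the whole list 4 of the 12 genes were lower without overlap, beside 5.12% of all genes tested, and the other genes overlapped. The summed level of the list was 1260, 1220, 1630 and 1120 CPM in *Atm*-WT mice and 971, 1050, 867 and 865 CPM in *Atm*-KO mice. Its highest library, Atm-WT 13M, was also the highest for *Ddit4*, whereas Atm-WT 2M, the next highest for the list, had the lowest *Ddit4* level of the *Atm*-WT mice, and the part of this response in the *Ddit4* values was not tested.

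*Mxi1* encodes a MAX-binding repressor that opposes MYC (chr19:53298852-53364241, plus strand). It had 99.4, 97.4, 102 and 96.6 CPM in *Atm*-WT mice and 86.2, 85.4, 74.0 and 74.5 CPM in *Atm*-KO mice. The *Atm*-WT mice were nearly equal, with a coefficient of variation of 2.46%, and all *Atm*-KO mice lay below them. The mean went from 98.8 ± 2.44 to 80.0 ± 6.68 CPM, in the fit −19.0% and a log2 fold change of −0.30 (SE 0.068, interval −0.45 to −0.16). The adjusted p was 0.0931 in edgeR and 0.00816 in DESeq2, and the exact permutation p was 0.0286. Without both libraries that stood apart the log2 fold change was −0.28. *Mxi1* shares 349 exon bases with the antisense RNA *Gm30541*, which had 838 counts over the 8 libraries. *Ddit4* and *Mxi1* were among the genes that the study itself had printed in a figure from these libraries, so their direction is not independent evidence.

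*Bnip3* encodes a receptor in the outer mitochondrial membrane that recruits the autophagy machinery (chr7:138490690-138511253, minus strand). It had 73.9, 75.8, 99.5 and 95.8 CPM in *Atm*-WT mice and 80.0, 76.7, 84.8 and 74.1 CPM in *Atm*-KO mice. All *Atm*-KO values lay inside the *Atm*-WT range, whose mice formed a lower and a higher pair. The log2 fold change was −0.13 (SE 0.10, interval −0.35 to 0.09, edgeR adjusted p = 0.495). It lay between −0.20 and −0.04 with each library left out in turn, nearest to 0 without Atm-WT 13M, and was −0.05 without both libraries that stood apart. *Bnip3* shares 504 exon bases with the antisense RNA *Gm45507* (960 counts over the 8 libraries).

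**Figure D3:**
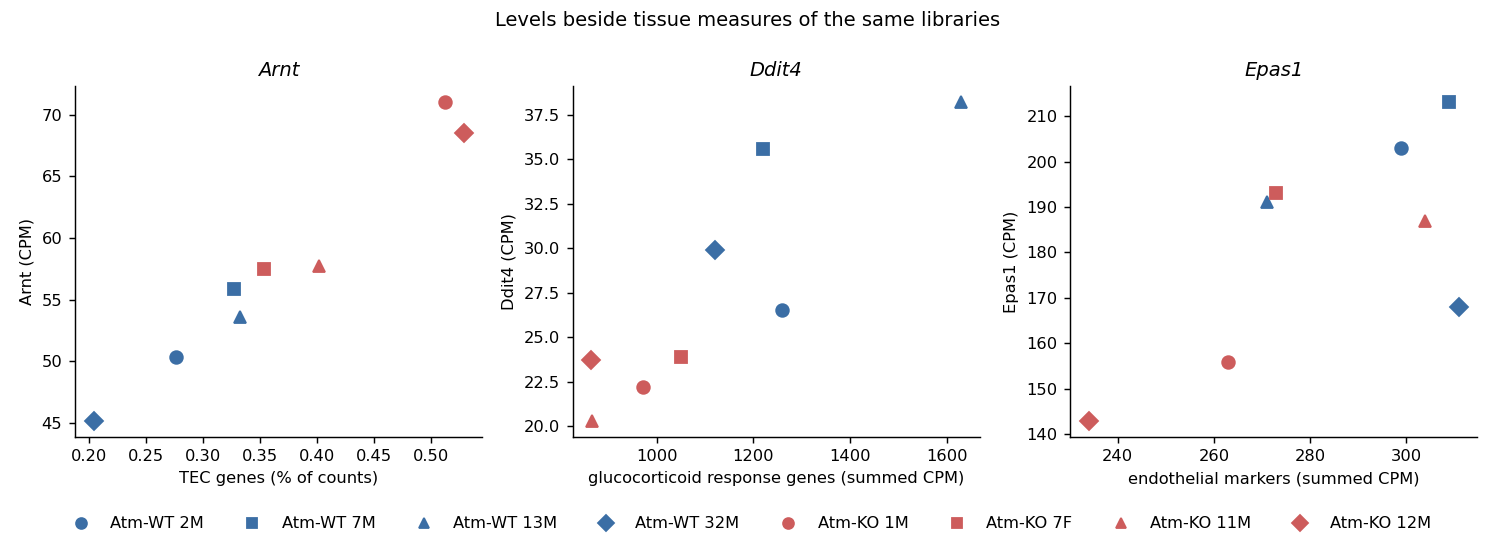
CPM of *Arnt*, *Ddit4* and *Epas1* in each library against the share of counts on TEC genes, the summed CPM of 12 glucocorticoid response genes and the summed CPM of 12 endothelial markers of the same library, with a symbol for each mouse (axes do not start at 0). Atm-KO 1M and 12M have the highest TEC shares (0.513% and 0.529%) and the highest *Arnt* levels (71.0 and 68.5 CPM), and Atm-WT 13M has the highest glucocorticoid sum (1630 CPM) and *Ddit4* level (38.2 CPM).

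Dividing CPM by exon length put the levels of the 10 genes on a scale that can be compared between genes. In *Atm*-WT mice the order was *Epas1* (34.3 ± 3.36 CPM per kb), *Hif1a* (30.1 ± 2.17), *Bnip3* (20 ± 3.07), *Mxi1* (13.6 ± 0.336), *Ddit4* (12 ± 1.95), *Egln1* (11.7 ± 0.471), *Vegfa* (11.4 ± 1.04), *Vhl* (9.85 ± 1.07), *Arnt* (5.48 ± 0.497) and *Egln3* (2.16 ± 0.431). The ranges of *Epas1* and *Hif1a* overlapped, as did each neighbouring pair from *Mxi1* down to *Vhl*, while *Hif1a*, *Bnip3* and *Mxi1* were apart in turn, as were *Vhl*, *Arnt* and *Egln3*. In *Atm*-KO mice *Ddit4* moved from rank 5 to rank 8 (8.29 ± 0.616 CPM per kb) and *Vegfa* from rank 7 to rank 4 (13.3 ± 0.971), above *Mxi1* (11 ± 0.921) without overlap. *Arnt* (6.81 ± 0.757) overlapped with *Ddit4* in *Atm*-KO mice. With the longest transcript in place of all exons, 3 of the 10 genes kept their rank in *Atm*-WT mice and *Hif1a* came first. *Arnt* (10.8 CPM per kb) then lay beside *Vhl* (10.7) in *Atm*-WT mice, a pair that was apart by all exons. In *Atm*-KO mice the means of *Vegfa* and *Mxi1* were then 16.2 and 15.3. The order thus rests on the length used, also for pairs given as apart.

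**Figure D4:**
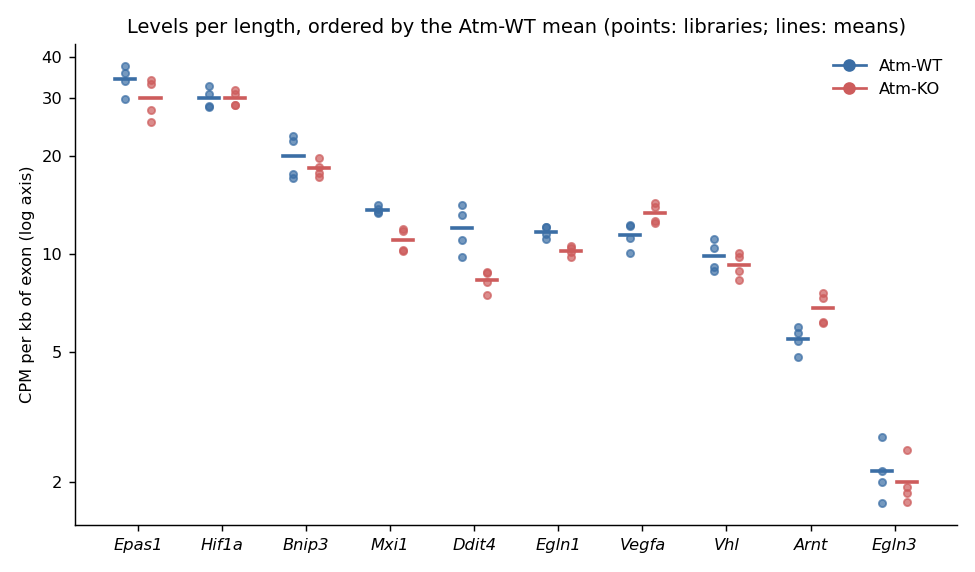
CPM per kb of exon for the 10 genes on a log axis, ordered by the *Atm*-WT mean, with a point for each of the 4 libraries of a genotype and a line for their mean. *Epas1* and *Hif1a* lie at about the same level in both genotypes, *Egln3* lies lowest (2.16 and 2.0 CPM per kb), and *Ddit4* goes from 12 to 8.29 while *Vegfa* goes from 11.4 to 13.3.

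Ratios between related genes in the same library do not depend on the scaling between libraries, and 7 such pairs were compared. *Vegfa* over *Vegfb*, a related growth factor with little part in vessel sprouting, had log2 ratios of 1.03, 1.2, 1.36 and 1.14 in *Atm*-WT and 1.74, 1.56, 1.95 and 1.92 in *Atm*-KO mice. This was the pair of the 7 whose genotypes did not overlap, with a difference of 0.61 (exact permutation p = 0.0286, Benjamini-Hochberg adjusted over the 7 pairs p = 0.20). *Arnt* over *Arnt2* went from −1.31 ± 0.20 to −0.83 ± 0.37 (difference 0.47, exact permutation p = 0.0571, adjusted p = 0.20). *Mxi1* over its partner *Max* went from 0.50 ± 0.11 to 0.30 ± 0.17 (difference −0.20, exact permutation p = 0.0857, adjusted p = 0.20). *Epas1* over *Hif1a* differed by −0.19 (exact permutation p = 0.257), *Ddit4* over *Ddit4l* by 0.19 (exact p = 0.657), *Egln3* over *Egln1* by 0.09 (exact p = 0.486) and *Bnip3* over *Bnip3l* by 0.03 (exact p = 0.771). Of the 7 pairs, 0 had an adjusted p under 0.05, which 4 against 4 mice could reach only if at least 5 of the pairs were at the smallest p of 0.0286.

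The wider pathway was described with lists chosen by function, with earlier results of these data known, so their counts are description only. They stand beside 11.7% higher and 8.48% lower among all genes tested. Among protein-coding genes with at least 10 CPM the shares were 7.51% and 14.6%, and 66.9% of those genes were fitted lower. DESeq2 called 8.03% of the genes to which it gave an adjusted p. The voom method of limma called 0 genes of each list. Of 17 other HIF subunits and regulators, 0 were higher and 6 were lower with an unadjusted p under 0.05, and 0 passed the adjusted threshold in edgeR, with a median log2 fold change of −0.15. *Elob*, a subunit of the VHL ligase, had 24.6 ± 5.61 CPM in *Atm*-WT mice and 17.2 ± 3.03 CPM in *Atm*-KO mice, with overlap. *Siah2*, a ligase that degrades EGLN hydroxylases, had 28.3 ± 2.92 and 23.7 ± 2.20 CPM, and *Hsp90ab1*, a chaperone of HIF1α, 951 ± 140 and 769 ± 91.0 CPM. Both also overlapped between genotypes. DESeq2 called 1 gene of the list, *Elob*. The lower count was 2 with library size alone and 3 without Atm-KO 1M or without Atm-KO 11M.

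HIF targets in glucose metabolism numbered 20, of which 1 was higher and 3 were lower with an unadjusted p under 0.05, 16 were fitted lower and 0 passed the adjusted threshold, with a median log2 fold change of −0.10. *Slc2a1*, the glucose transporter of the blood-brain barrier and astrocytes, had 129, 91.2, 168 and 94.2 CPM in *Atm*-WT mice and 81.0, 91.0, 74.6 and 54.3 CPM in *Atm*-KO mice. The genotypes came as near as 91.2 and 91.0 CPM without overlap, and the log2 fold change was −0.68 (SE 0.196, edgeR adjusted p = 0.116). *Pfkl* and *Pfkp*, the liver and platelet forms of phosphofructokinase, lay on opposite sides, *Pfkl* with 68.9 ± 4.09 and 60.6 ± 4.18 CPM (log2 fold change −0.19) and *Pfkp* with 178 ± 16.2 and 205 ± 8.17 CPM (0.20). DESeq2 called 0 genes of this list, and edgeR without a filter on low counts called 1, *Slc2a1*. The lower count was 1 with library size alone, with a surrogate variable, without Atm-WT 32M, Atm-KO 1M or Atm-KO 12M and without both libraries that stood apart, and 5 without Atm-KO 7F or without a filter. The higher count was 0 without Atm-KO 1M.

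Of 30 targets outside glucose metabolism 29 were tested, 2 were higher and 6 were lower with an unadjusted p under 0.05, and 0 passed the adjusted threshold, with a median log2 fold change of −0.14. *Tfrc*, the transferrin receptor, had 96.3, 111, 122 and 105 CPM in *Atm*-WT mice and 142, 134, 139 and 136 CPM in *Atm*-KO mice, higher without overlap (log2 fold change 0.34, SE 0.073, edgeR adjusted p = 0.0931). *Sap30*, a subunit of a histone deacetylase complex, had 11.2 ± 0.276 and 7.60 ± 1.13 CPM (−0.55, edgeR adjusted p = 0.0931). *Bhlhe40*, a repressor of the circadian clock, had 88.3 ± 8.09 and 70.6 ± 3.41 CPM (−0.32, edgeR adjusted p = 0.0942). Both lay lower in *Atm*-KO mice without overlap. DESeq2 called these 3 genes and 1 other, *Angptl4*, a regulator of lipid uptake named here after its values were seen (1.97 ± 0.625 and 1.11 ± 0.138 CPM). The higher count was 1 with a surrogate variable, without both libraries that stood apart, and without Atm-WT 2M, Atm-WT 7M, Atm-KO 7F or Atm-KO 12M.

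Around *Vegfa*, 9 genes of the VEGF family and its receptors held 0 that were higher and 2 that were lower with an unadjusted p under 0.05, with a median log2 fold change of −0.17. *Vegfb* had 21.9 ± 3.85 CPM in *Atm*-WT mice and 16.5 ± 1.2 CPM in *Atm*-KO mice. *Flt4*, a receptor of lymphatic and some vascular endothelium, had 5.25 ± 1.17 and 3.43 ± 0.782 CPM. *Flt1*, a VEGF receptor that also stands in the endothelial and target lists, had 101 ± 8.67 and 87.3 ± 13.9 CPM (edgeR unadjusted p = 0.0752). DESeq2 called *Vegfb* and *Flt4*, and without Atm-WT 2M the lower count was 1. At the same unadjusted threshold *Vegfa* was higher and 0 of these 9 genes were.

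Around *Ddit4*, 12 genes of mTORC1 signalling held 0 higher and 3 lower with an unadjusted p under 0.05, and 6 genes were fitted on each side of a median of −0.04. The 3 were *Ddit4l*, a paralog (2.16 ± 0.725 and 1.30 ± 0.369 CPM), and the stress-induced sestrins *Sesn1* (92.1 ± 7.14 and 82.6 ± 1.94 CPM) and *Sesn3* (387 ± 26.7 and 338 ± 29.9 CPM). Of other genes on the list that restrain mTORC1, *Tsc1* and *Tsc2* had log2 fold changes of 0.04 and 0.11 and *Sesn2* and *Akt1s1* of −0.14 each, with unadjusted p of 0.05 or more in edgeR (named after their values were seen). The list gave 2 higher and 1 lower with library size alone, 0 lower without Atm-WT 7M or without Atm-KO 1M, 1 lower without Atm-KO 7F or with at least 10 counts in every library, and 1 higher and 1 lower without Atm-WT 13M. Around *Mxi1*, 10 genes of the MYC, MAX and MXD network held 0 in either direction, with a median of −0.10, and 2 lower without Atm-WT 32M or without both libraries that stood apart, 1 lower without Atm-WT 7M or with a surrogate variable. *Myc*, also named after its values were seen, had 1.03 and 0.738 CPM (log2 fold change −0.48, edgeR unadjusted p = 0.0775). Among genes with a mean of at least 1 CPM over all libraries, those with the smallest p were *Mxd1* (44.6 ± 2.86 and 41.0 ± 2.67 CPM) and *Mxd4* (112 ± 22.1 and 98.4 ± 12.1 CPM), repressors of the same family as *Mxi1*, and *Max* (70 ± 4.02 and 64.9 ± 4.18 CPM).

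Around *Bnip3*, 11 mitophagy genes held 0 higher and 4 lower with an unadjusted p under 0.05, and 10 of them were fitted lower, with a median log2 fold change of −0.15. *Pink1*, the kinase that marks damaged mitochondria, had 337 ± 38.4 CPM in *Atm*-WT mice and 277 ± 14.9 CPM in *Atm*-KO mice. The autophagy receptor *Sqstm1* had 228 ± 27.6 and 186 ± 19.2 CPM, and *Map1lc3a*, which coats autophagosomes, 30.2 ± 5.50 and 22.2 ± 4.25 CPM. *Sqstm1* did not overlap between genotypes and the others did. Without both libraries that stood apart the lower count was 1. In the lists around *Vegfa*, *Ddit4*, *Mxi1* and *Bnip3*, 0 genes passed the adjusted threshold of edgeR, and DESeq2 called 2, 0, 0 and 2 of them, those near *Bnip3* being *Pink1* and *Map1lc3a*.

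**Figure D5:**
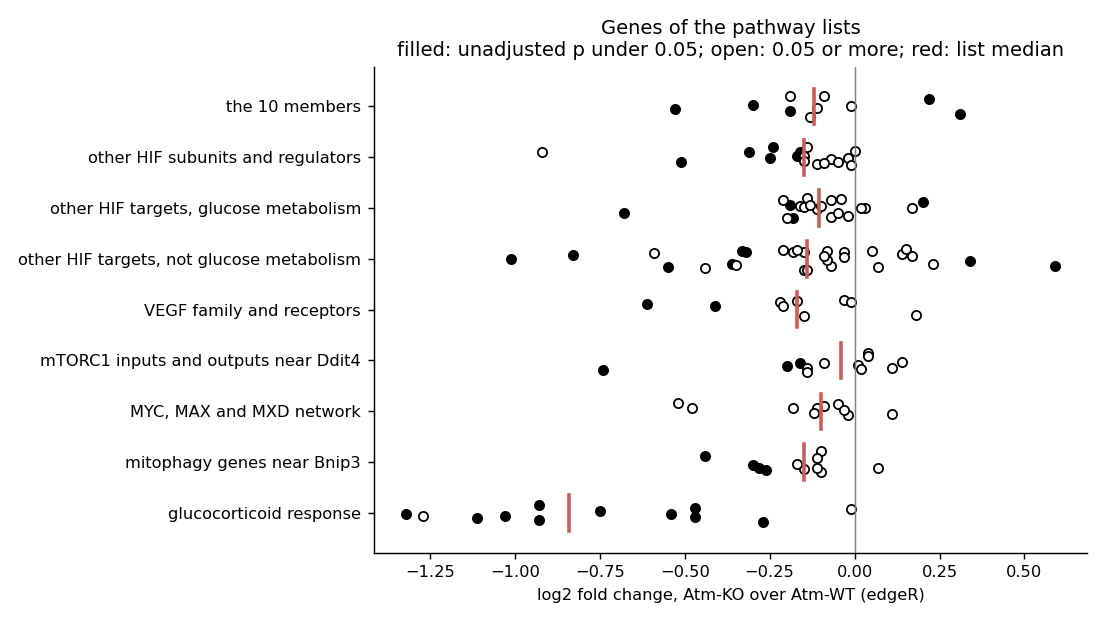
Log2 fold change (*Atm*-KO over *Atm*-WT, edgeR) of each gene tested in the member group and 8 lists, with a point for each gene (filled for an unadjusted p under 0.05; height within a list is arbitrary) and a red line for the list median. Medians run from −0.04 for the mTORC1 list to −0.15 for the lists of other HIF regulators and of mitophagy and −0.17 for the VEGF list, and the glucocorticoid list lies furthest to the left at −0.84.

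For the 5 members that did not overlap, the 2 genes whose levels followed theirs most closely over the 8 libraries were looked up among 15739 genes. Likeness was the root mean square difference of log2 CPM after each gene was centred on its mean, so that 0 would be the same pattern. *Arnt* was closest to *Fubp1* (0.041), a regulator of MYC transcription, and *Hars2* (0.045), a mitochondrial histidyl-tRNA synthetase. *Egln1* was closest to the kinase *Mapkapk2* (0.021) and to *Tmbim6* (0.022), an endoplasmic reticulum membrane protein. *Mxi1* was closest to *Krcc1* (0.031) and *Gm43361* (0.05). *Vegfa* was closest to *Gm10644* (0.055) and *Ppp1r16a* (0.067), and *Ddit4* to *Tob2* (0.088), an antiproliferative protein, and *Errfi1* (0.116) of the glucocorticoid list. The members varied by different amounts themselves, with a root mean square of 0.106 for *Egln1*, 0.153 for *Vegfa*, 0.172 for *Mxi1*, 0.201 for *Arnt* and 0.305 for *Ddit4*, so the distances are not ranked between members. The same distances were not computed for other genes.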

How the data were processed

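Cerebellar RNA of 8 mice was extracted with TRIzol and sequenced by Novogene. The authors aligned reads with STAR to GRCm39 and used featureCounts for counts per gene, which they deposited raw and not normalized (FastQC 0.11.9, STAR, featureCounts and DESeq2 are named in the submitters' processing notes). Strand and read pair settings are not given in the sources used here. The table had 0 columns without a sample. Identifiers without version were matched to GENCODE vM39, which held 56017 of 56691 (98.8%).

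The genotype comparison used edgeR 4.0.16 with R 4.3.3 (filterByExpr, TMM, glmQLFit, glmQLFTest, Benjamini-Hochberg over 22423 genes, no covariate). Log2 CPM used a prior count of 2, and exact permutation tests were two-sided. Values are mean ± SD over 4 mice. Named were the 10 members, *Atm*, the 3 genes with the smallest unadjusted p and at least 1 CPM in each pathway list, and the 2 nearest genes of each member without overlap; further genes (*Arnt2*, *Bnip3l*, antisense RNAs) are named as partners in a pair or an overlap. Members and lists were chosen with earlier results of these data known. Alternatives used DESeq2 1.42.0, limma 3.58.1 (voom), sva 3.50.0, other scalings and filters, mitochondrial genes left out, and each library left out. The edgeR, voom and DESeq2 fits were also run on simulated counts, drawn independently for each gene. The simulation did not hold the differences between libraries in TEC genes, nuclear RNAs or cell markers. It did not cover the exact tests, pairs or lists.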

Additional observations from a re-analysis of the deposited data

Results flagged for a closer look

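Among 34 groups of 4 values (each member and each pair ratio in each genotype), 2 held a value whose gap to the nearest other value exceeded Dixon's critical share of the range of the group, where chance gives about 1.7. The log2 ratio of *Egln3* to *Egln1* was −3.80 in Atm-KO 11M and lay between −4.22 and −4.18 in the other *Atm*-KO mice (gap 0.899 of the range). The log2 ratio of *Bnip3* to *Bnip3l* was −0.87 in Atm-KO 7F and lay between −0.82 and −0.81 in the other *Atm*-KO mice (gap 0.932 of the range), a difference that is small beside the SD of 0.12 among the *Atm*-WT mice. The cause of either was not tested.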

How the results depend on the processing

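*Arnt*, *Egln1*, *Vegfa*, *Ddit4* and *Mxi1* kept their direction in all 18 settings, with log2 fold changes of 0.22 to 0.38, −0.20 to −0.14, 0.18 to 0.27, −0.62 to −0.43 and −0.34 to −0.26 and edgeR, DESeq2 or limma adjusted p of 0.0461 to 0.323, 0.0637 to 0.334, 0.127 to 0.338, 0.00226 to 0.293 and 0.00816 to 0.293. Members past the adjusted threshold numbered 0, but 2 without a filter on low counts and 3 with DESeq2. Genes called over the whole table numbered 4, but 591 without a filter, 1609 with DESeq2, 15 with a surrogate variable, 24 without both libraries that stood apart (chosen after seeing the data) and from 1 to 27 with each library left out in turn (27 without Atm-WT 13M, 10 without 32M, 2 without 7M, and 1 without Atm-WT 2M, Atm-KO 1M or Atm-KO 11M). Members higher without overlap numbered 2, but 1 with library size alone (in the fit, or in CPM of the same genes) and 1 to 2 with each library left out, *Vegfa* being lost without Atm-WT 7M. Members higher at an unadjusted p under 0.05 numbered 2 and from 1 to 2 with each library left out, *Vegfa* being lost without Atm-KO 11M. Members lower at that threshold numbered 3 and from 3 to 4 with each library left out, *Epas1* being gained without Atm-WT 32M or Atm-KO 7F. *Hif1a* changed sign to 0.05 with library size alone, 0.02 with at least 10 counts in every library, and 0.0053, 0.05, 0.01 and 0.04 without Atm-WT 7M, Atm-WT 13M, Atm-KO 1M and Atm-KO 7F (range over libraries left out −0.04 to 0.05). *Egln3* changed sign to 0.02 with a surrogate variable, 0.03 without Atm-WT 32M (range −0.22 to 0.03) and 0.09 without both libraries that stood apart. *Bnip3* over *Bnip3l* changed sign to −0.00073 without Atm-WT 2M and −0.0026 without Atm-WT 7M (range −0.0026 to 0.08), *Ddit4* over *Ddit4l* to −0.02 without Atm-WT 32M (range −0.02 to 0.46), and *Egln3* over *Egln1* to −0.0071 without Atm-KO 11M (range −0.0071 to 0.20). By longest transcript 3 of 10 ranks were kept. The cause of these changes was not tested. No paired analysis was possible because the labels do not give the litter of a mouse or any pairing between the genotypes. Sex by label letter cannot be told apart from mouse 7F, without which the members higher and lower without overlap were again 2 and 3. Protein levels and activity of the factors were not analysed here.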
